A study of Saccharomyces cerevisiae with 5 samples.

Results

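The genes examined here encode the subunits of the 26S proteasome of *Saccharomyces cerevisiae*. They were chosen by gene symbol from general knowledge of the complex: the PRE, PUP and SCL1 genes of the 20S core, the RPT and RPN genes of the 19S regulatory particle, and RPN4, which encodes the transcription factor that activates them. Of these 33 genes, 32 had a row in the tables of all 5 libraries, out of 5264 host genes, namely 14 core and 18 regulatory particle genes. RPN4 was not analysed here. All 32 carried the chosen symbol in the R64 gene table, and all passed the filter on low signal in every library. Nucleosomes were mapped in 5 strains of this yeast, each with DNA of another yeast on an artificial chromosome (YAC), a vector that the cell copies and passes on as a chromosome. The YACs of strains YAC1, YAC2 and YAC3 hold *Kluyveromyces lactis* DNA and those of YAC6 and YAC7 hold *Debaryomyces hansenii* DNA. All 5 strains grew in the same dextrose medium lacking tryptophan and uracil, with yeast extract, peptone and adenine, and their walls were digested with zymolyase before the nuclease was added. Each strain gave 1 library of nucleosomal DNA, so n is 3 or 2 different strains, no strain without a YAC was measured, and the labels give no further genotype of the host.

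The proteasome degrades proteins that carry ubiquitin chains. Its core is a barrel of stacked rings: the outer alpha rings form a gate, and the inner beta rings hold the proteolytic sites, which lie in the products of PRE3, PUP1 and PRE2. The regulatory particle has a base, with a ring of RPT ATPases that unfold the substrate and the scaffold proteins RPN1 and RPN2, and a lid, in which RPN11 removes ubiquitin. RPN10 and RPN13 bind ubiquitin. In this yeast most subunit genes share a promoter element bound by Rpn4, an unstable protein that the proteasome itself degrades. In actively used yeast genes a nucleosome-depleted promoter is commonly followed by an array of regularly placed nucleosomes, of which the first downstream of the start site is called the +1 nucleosome.

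The measurement was the coverage of DNA protected from micrococcal nuclease, an enzyme that cuts linker DNA, in 151 bins of 10 bp that span each start site from -500 to +1000 bp. The number of reads is not known. In units of the smallest step of a table, the mean host signal ranged from 396 steps per bin in YAC3, the coarsest library, to 1739 in YAC1. The start sites listed for genes of chromosomes II and X are displaced from the nucleosome pattern. The median promoter ratio defined below ranged from -0.03 to 0.13 on chromosome X and from -1.85 to -1.48 on chromosome II over the 5 libraries, against -2.61 to -1.74 on the other 14 chromosomes. Of the subunit genes, PRE7 lies on chromosome II and PRE3 on chromosome X. They are described separately, and the medians below cover the other 30 genes (12 core and 18 regulatory particle), set beside 4572 to 4575 host genes off these 2 chromosomes.

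Most proteasome promoters were more depleted of nucleosomes than the median host promoter in every library, and those of the core more so than those of the regulatory particle. Depletion was read as a promoter ratio, which divides the promoter signal (-120 to -20 bp) by the downstream signal (+100 to +500 bp) and takes log2, with 0.1 times the gene's mean signal added to both. Lower values mean deeper depletion, and the added amount compresses the lowest ones. All lists of 5 values below run from YAC1, YAC2 and YAC3 to YAC6 and YAC7. The median ratio of the 12 core genes was -3.06, -2.60, -2.78, -2.94 and -2.85. That of the 18 regulatory particle genes was -2.78, -2.13, -2.31, -2.76 and -2.32, and that of the host genes was -2.37, -1.84, -1.84, -2.41 and -1.98. The core median lay below the host median by 0.76 ± 0.16 (difference -0.76, SD, n = 5 libraries) and the regulatory particle median by 0.37 ± 0.07 (difference -0.37), each in 5 of 5 libraries. With no logarithm, the core promoters held 7.45% and the regulatory particle promoters 10.7% of the signal found from +100 to +500 bp (medians over genes, mean of 5 libraries), against 16.9% for host promoters. Since the genes were chosen with earlier results of these data known, none of these differences is given a p-value.

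The counts of single genes give the same picture with a wide spread. A ratio below -2 was found for 29, 20, 19, 29 and 24 of the 30 genes, against 64.9%, 42.8%, 43.7%, 64% and 49% of host genes. In the lowest 25% of host promoters lay 9, 7, 8, 6 and 10 of the 12 core genes, and 8, 6, 3, 7 and 5 of the 18 regulatory particle genes. The core share is above that background of 25% in all 5 libraries, while the regulatory particle share is above it in 4 libraries, by little in YAC7 (5 of 18), and below it in YAC3 (3 of 18). Below the host median, a line that 50% of host genes fall under, lay 10, 11, 9, 11 and 11 of the 12 core genes and 15, 12, 11, 16 and 14 of the 18 regulatory particle genes. The SD of the ratio between genes was 0.54 for the subunit genes and 0.86 for host genes. A gene's own ratio had a median SD of 0.28 between libraries after each library was centred, so genes differed from each other by more than 1 gene did between strains.

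**Figure D1:**
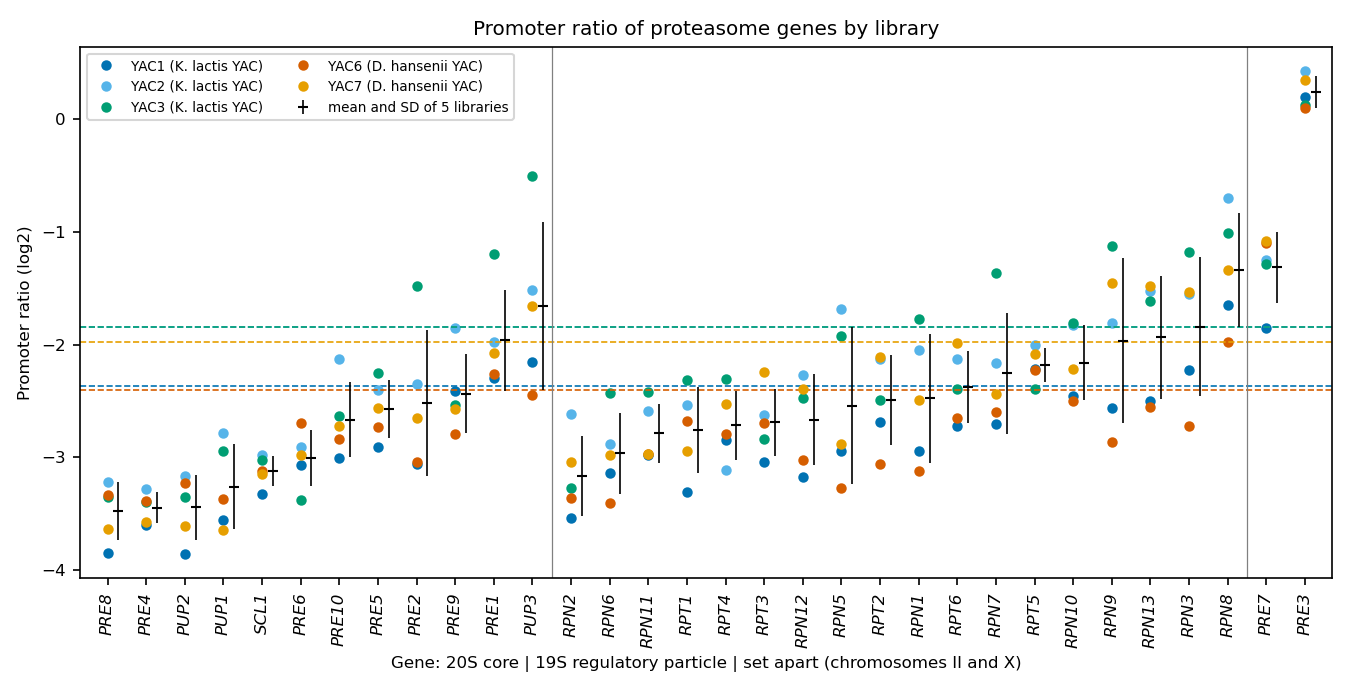
Promoter ratio (log2, y axis) of each of the 32 subunit genes in the 5 libraries (coloured points), with the mean and SD of the 5 libraries beside them. Dashed lines mark each library's median over host genes off chromosomes II and X. PRE8, PRE4 and PUP2 lie between -3.85 and -3.16 in all libraries, PUP3 spreads from -2.45 to -0.51, and PRE3, set apart at the right with PRE7, lies above 0.

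Within the core, the lowest promoter ratios were those of PRE8 (YML092C) and PUP2 (YGR253C), which encode alpha-ring subunits, and PRE4 (YFR050C), which encodes a beta-ring subunit. PRE8 had promoter ratios of -3.84, -3.22, -3.35, -3.33 and -3.64 (mean -3.48 ± 0.26, SD, n = 5). PRE4 had ratios of -3.60, -3.28, -3.40, -3.39 and -3.57 (mean -3.45 ± 0.14). PUP2 had ratios of -3.85, -3.16, -3.35, -3.23 and -3.61 (mean -3.44 ± 0.29). All 3 were lower than the host median in every library, and their means differ by less than their SD. Signal from -120 to -20 bp was 1.74 ± 0.84% of the level from +100 to +500 bp in PRE4 and 3.82 ± 1.50% in PRE8. It was 3.76% in PUP1 and 4.63% in PUP2, so the order differs from that of the ratio. By ratio the proteolytic subunit gene PUP1 (YOR157C) came next, with a mean of -3.26 ± 0.38. SCL1 (YGL011C), an alpha-ring subunit gene, followed at -3.12 ± 0.13.

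The shallowest core promoters off chromosomes II and X were those of PUP3 and PRE1, both genes of beta-ring subunits without a proteolytic site. PUP3 (YER094C) had ratios of -2.16, -1.52, -0.51, -2.45 and -1.66 (mean -1.66 ± 0.74). Its value was highest in YAC3, and its range of 1.94 between libraries was the widest of the 32 genes. PRE1 (YER012W) had ratios of -2.30, -1.97, -1.19, -2.26 and -2.07 (mean -1.96 ± 0.45), again with YAC3 highest. The mean ratio of PUP3 turned sign with the promoter window, from -1.66 to 0.19 when the window ran from -200 to 0 bp, and so did that of PRE3 on chromosome X, from 0.24 to -0.049. A strong nucleosome stood just upstream: the signal of PUP3 from -260 to -160 bp was 357%, 351%, 281%, 343% and 391% of that from +100 to +500 bp, a window added after the data were seen. The other 5 core genes, PRE2, PRE5, PRE6, PRE9 and PRE10, had mean ratios from -3.00 (PRE6) to -2.43 (PRE9).

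In the regulatory particle the lowest promoter ratios were those of RPN2, the scaffold protein of the base, RPN6, a lid subunit, and RPN11, the deubiquitinase of the lid. RPN2 (YIL075C) had ratios of -3.54, -2.61, -3.27, -3.36 and -3.04 (mean -3.16 ± 0.36). RPN6 (YDL097C) had ratios of -3.14, -2.88, -2.43, -3.40 and -2.97 (mean -2.96 ± 0.36). RPN11 (YFR004W) had ratios of -2.98, -2.59, -2.42, -2.97 and -2.97 (mean -2.79 ± 0.26). Each of the 3 lay below the host median of its library in all 5 strains. The order changed when nothing was added to the signal. The mean promoter signal was then 4.47% of the level from +100 to +500 bp in RPN6, 5.47% in RPN2 and 8.94% in RPN11. RPT4 (6.82%), RPT3 (7.72%), RPT1 (7.84%) and RPN12 (8.42%) held less than RPN11, so its place among the lowest depends on the measure.

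At the other end stood RPN8, the lid subunit that pairs with RPN11, and RPN3, another lid subunit. RPN8 (YOR261C) had ratios of -1.65, -0.70, -1.01, -1.98 and -1.34 (mean -1.33 ± 0.50). It lay above the host median in every library, and its lowest point was at -40 bp in all 5. RPN3 (YER021W) had ratios of -2.22, -1.55, -1.18, -2.72 and -1.53 (mean -1.84 ± 0.62), below the host median only in YAC6. RPN9 (YDR427W), a lid subunit gene, had ratios of -2.56, -1.81, -1.13, -2.87 and -1.45, and its range of 1.74 was second only to that of PUP3. YAC1 and YAC6, the libraries with the finest steps, gave the lowest values of RPN9 and YAC3, the coarsest, the highest. The part of depth in this order was not tested. The 6 ATPase genes RPT1 to RPT6 were more alike, with means from -2.76 ± 0.38 (RPT1) to -2.18 ± 0.15 (RPT5).

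The depleted stretch was wider in core genes than in regulatory particle genes, while its place was nearly the same. The place is the lowest point of the smoothed signal between -300 and +50 bp, and the width is the stretch around it with less than 50% of the signal from +100 to +500 bp. Median widths of the 12 core genes were 247, 189, 243, 168 and 231 bp. Those of the 18 regulatory particle genes were 171, 145, 145, 160 and 144 bp, and those of host genes were 169, 154, 172, 153 and 162 bp. The core was wider than the regulatory particle by 62.2 ± 36.6 bp (SD, n = 5), in 5 of 5 libraries, but by only 7.41 bp in YAC6. Wider than 200 bp were 7, 5, 8, 4 and 7 of the 12 core genes and 3, 3, 4, 2 and 4 of the 18 regulatory particle genes, against 38.3%, 32.8%, 41%, 27.9% and 38.2% of host genes. The core share was above the host share in each library and the regulatory particle share below it in each. The lowest point lay at a median of -72 ± 2.74 bp in the core, -77 ± 4.47 bp in the regulatory particle and -70 bp in host genes.

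The widest depleted regions were those of PRE2, which encodes a proteolytic subunit, and PUP2, and their order is not known because both ran to the edge of the tables. In PRE2 (YPR103W) it spanned 638, 640, 234, 493 and 638 bp (mean 529 ± 176 bp), with YAC3 the narrowest. Its promoter ratio was -3.06, -2.35, -1.48, -3.04 and -2.65, so the width does not go with an extreme ratio. The next gene upstream, RPL11A, which encodes a ribosomal protein, is transcribed away from PRE2, and it has no row in these tables. In PUP2 the region spanned 538, 462, 695, 159 and 673 bp, with YAC6 the narrowest, and its upstream neighbour is the glycolytic gene ENO1, also transcribed away from it. The upstream edge was the first bin of the table in YAC1, YAC2 and YAC7 for PRE2 and in YAC1, YAC3 and YAC7 for PUP2, so these widths are lower limits. Of all 160 gene and library values 7 had this edge, and the last was that of PRE6 in YAC3. In PRE8, which lies in tandem behind RPM2, the width was 383, 399, 428, 357 and 403 bp, which is more even than in PRE2 and PUP2. Its signal from -260 to -160 bp was between 0.026% and 2.98% of the level from +100 to +500 bp.

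RPN10, a ubiquitin receptor, had the narrowest region off chromosomes II and X. RPN10 (YHR200W) had widths of 121, 106, 111, 108 and 104 bp (mean 110 ± 6.9 bp), which differ less between strains than those of PRE2 or PUP2. The ubiquitin receptor RPN13 (YLR421C) was within its spread at 111 ± 16.0 bp. In the regulatory particle the widest was RPT1, an ATPase gene, with 373, 308, 368, 154 and 476 bp. Here too YAC6 gave the lowest value.

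**Figure D2:**
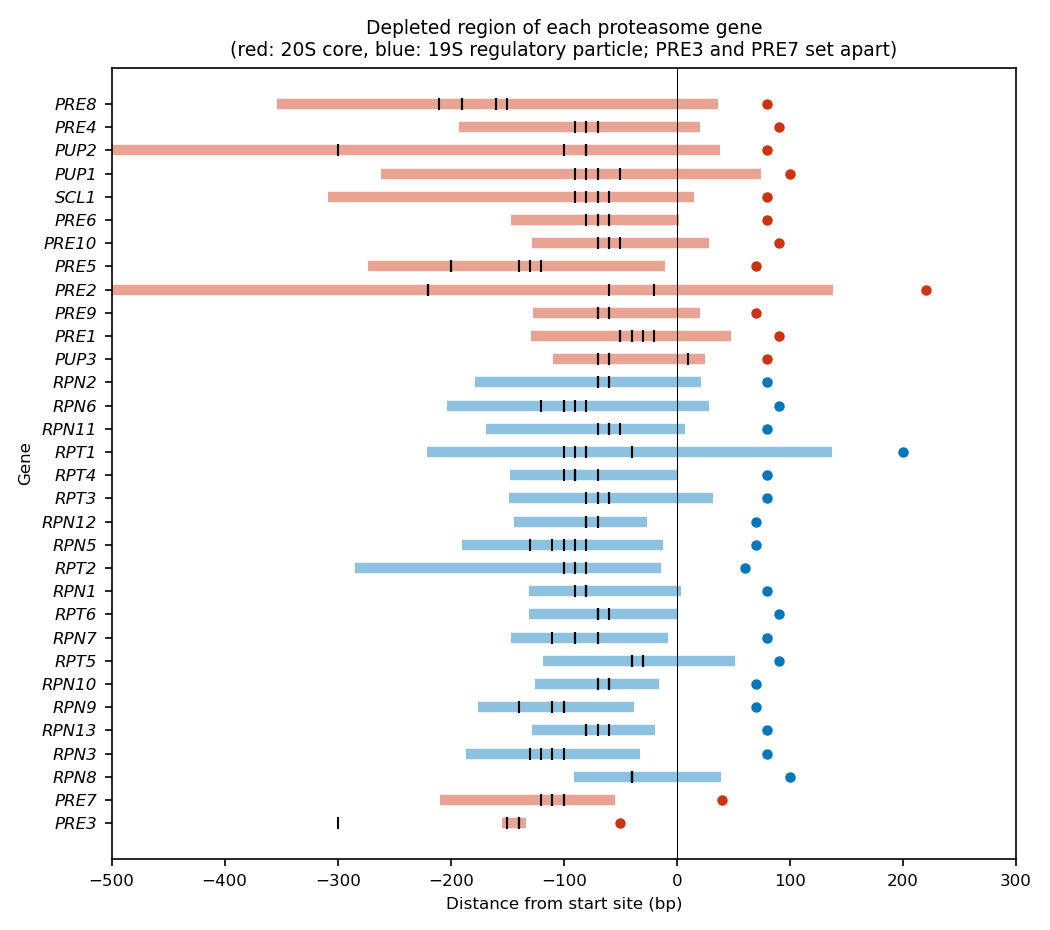
Depleted region of each subunit gene along the distance from the start site (bp, x axis). Bars run from the median upstream edge to the median downstream edge of the 5 libraries. Ticks mark the lowest point in each library, and dots mark the median place of the first peak downstream. The bars of PRE2, PUP2 and PRE8 reach far upstream, the first peaks of PRE2 and RPT1 lie at 220 and 200 bp, and those of RPN10, RPN13 and RPN12 are short.

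The level of the +1 nucleosome also differed between the subunit genes, and it was lower in the core than in the regulatory particle. This level is given as the signal from +30 to +130 bp in percent of that from +100 to +500 bp, a measure added after the data were seen. The median was 74.0, 81.7, 51.6, 117 and 67.7% in the 12 core genes and 141, 129, 116, 126 and 128% in the 18 regulatory particle genes. In host genes it was 113, 109, 99.6, 124 and 109%. The core lay below the regulatory particle by 49.4 ± 24.2 percentage points (difference -49.4, SD, n = 5), in 5 of 5 libraries, with the smallest gap in YAC6 (-8.35). Of the 12 core genes 10, 9, 9, 8 and 8 lay below the host median, where 50% of host genes lie by definition, and of the 18 regulatory particle genes 7, 8, 7, 9 and 7 did. The promoter ratio, the width and this level share the reference from +100 to +500 bp, so their differences between core and regulatory particle are not independent. With the whole profile as reference the difference in ratio shrank from -0.39 to -0.09. That in level kept its sign, and the width was not read against another reference.

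Within each particle, the beta-ring genes and the ATPase genes had the lower medians. The median over the 5 beta-ring genes was 63.5 ± 19.4% and that over the 7 alpha-ring genes 96.0 ± 21.0%, with the beta ring lower in 5 of 5 libraries. Within the regulatory particle the 6 ATPase genes had a median of 82.5 ± 8.85% and the lid genes one of 151 ± 19.3%, with the ATPase genes lower in 5 of 5 libraries. The groups overlap. The alpha-ring genes PUP2 (67.4 ± 34.6%), PRE9 (68.5 ± 15.2%) and PRE8 (73.4 ± 24.9%) were low, and so was the lid gene RPN8 (81.7 ± 11.6%). The beta-ring gene PRE4 (115 ± 10.7%) and the ATPase genes RPT4 (125 ± 26.5%) and RPT6 (169 ± 5.8%) were above the host median of 111%, all as means over libraries. RPT6 was above the host median of each library, whereas PRE4 and RPT4 lay below it in YAC2 and YAC6. These genes and the 6 genes of the next paragraph were named here after their values were seen.

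PRE2 had first-nucleosome levels of 39.7, 26.3, 14.2, 71.3 and 27.1%. RPT1 (YKL145W) had levels of 38.0, 44.3, 32.9, 71.3 and 38.9%, and PUP1 had levels of 46.7, 55.1, 41.9, 89.0 and 30.8%. In all 3 genes YAC6 was the highest library, and none reached the host median in any library. In PRE2 and RPT1 the depleted region ran over the usual place of the +1 nucleosome in all libraries but YAC6. The first peak with at least 50% of the downstream signal lay at 220, 220, 220, 60 and 220 bp in PRE2. In RPT1 it lay at 220, 190, 200, 60 and 210 bp, whereas its median place over libraries was 60 to 100 bp in each of the other 28 genes off chromosomes II and X. RPT5 (YOR117W), an ATPase gene, was low and even, at 54.1, 57.5, 52.7, 60.2 and 50.8%. The highest levels were those of the lid genes RPN12 (YFR052W), at 262, 244, 340, 122 and 355%, and RPN9, at 243, 269, 296, 152 and 283%. In these 2 genes YAC6 was the lowest library, the opposite of PRE2, RPT1 and PUP1. YAC6 gave the highest level of the 5 libraries in 8 of 12 core genes and 7 of 18 regulatory particle genes, against 44.5% of host genes, so the highest place of YAC6 was common in the whole library.

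**Figure D3:**
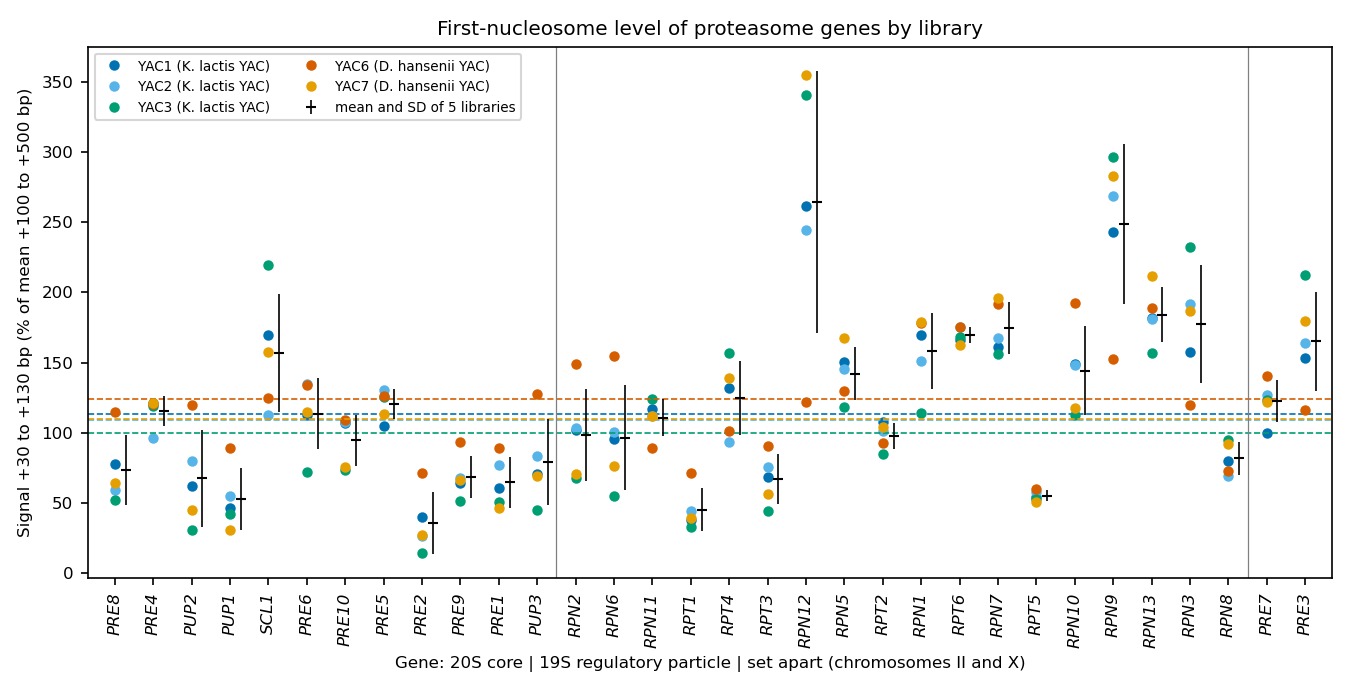
Signal from +30 to +130 bp in percent of the mean from +100 to +500 bp (y axis) for each subunit gene in the 5 libraries, with the mean and SD beside the points. Dashed lines mark the host median of each library. PRE2, RPT1, PUP1 and RPT5 lie below 100 in all libraries, while RPN12 and RPN9 reach 355 and 296.

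The mean profiles show where the 2 parts of the complex separate. In the mean profile of the core genes the +1 peak, at 80 to 90 bp, stood at 97.1, 95.0, 84.1, 125 and 85.1% of the mean from +100 to +500 bp. In that of the regulatory particle it stood at 154, 150, 149, 148 and 161%, and in that of host genes at 138, 131, 128, 144 and 138%. At the second nucleosome, at 230 to 250 bp, core genes reached 143, 119, 128, 138 and 138% and regulatory particle genes 140, 127, 139, 130 and 132%, so that neither was higher in all libraries. The lowest point of the core profile was 4.31, 9.48, 14.6, 3.74 and 6.38%, and that of the regulatory particle 5.13, 13.3, 15.3, 4.0 and 10.7%. Both were below the host profile, with 16.0, 24.6, 28.9, 16.5 and 23.5%, in every library.

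**Figure D4:**
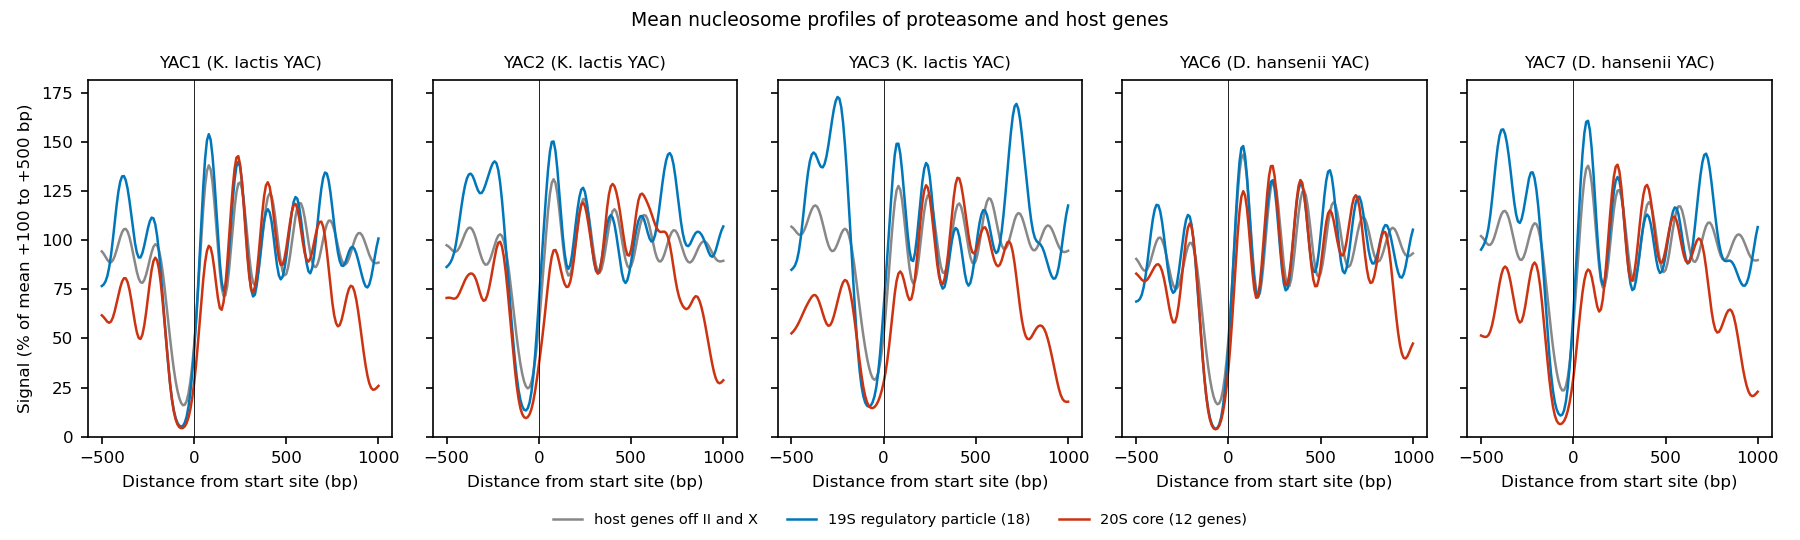
Mean smoothed signal (percent of the mean from +100 to +500 bp, y axis) against distance from the start site (bp) for 12 core genes, 18 regulatory particle genes and the host genes off chromosomes II and X, in 1 panel per library. The core line has the lowest +1 peak (84.1 to 125) and lies lowest at the right end of each panel.

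The size of the difference in promoter ratio between the core and the regulatory particle depended on the reference. With the stretch from +100 to +500 bp as reference it was -0.28, -0.47, -0.48, -0.18 and -0.53 (mean -0.39 ± 0.15, SD, n = 5). With the whole profile of a gene as reference it was -0.09 ± 0.14, with the core lower in 4 of 5 libraries, and with a promoter window from -200 to 0 bp it was -0.80 ± 0.34. With PRE7, PRE3 and the other genes of chromosomes II and X included it was -0.24 ± 0.11, with the core lower in 5 of 5 libraries and a smallest gap of -0.06. Core genes also had less signal far downstream. From +800 to +1000 bp, a window added after the data were seen, the median core gene held 40.3 ± 15.6% of the signal from +100 to +500 bp, the median regulatory particle gene 88.7 ± 7.53% and the median host gene 82.9 ± 5.92%. The core lay below the regulatory particle there by 48.4 ± 13.2 percentage points (difference -48.4), in 5 of 5 libraries. With a window from +700 to +900 bp the difference was -29.5 ± 15.1. Below the host median, with 50% of host genes, lay 10, 10, 11, 10 and 11 of the 12 core genes. The same window is used for every gene whatever its length, and the ends of the genes were not used, so the part of gene length in this difference was not tested.

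Single genes differed widely in this far downstream stretch. PRE6 (YOL038W), an alpha-ring gene, held 20.1, 29.6, 12.6, 28.1 and 13.5% from +800 to +1000 bp, and PRE1 held 22.5, 22.2, 28, 29.6 and 21.5%. PRE10 (YOR362C), also an alpha-ring gene, went the other way with 162, 138, 121, 134 and 167%. Among regulatory particle genes RPT2 (YDL007W), an ATPase gene, was the highest, with 116, 214, 175, 105 and 148%. These 4 genes were named after their values were seen.

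**Figure D5:**
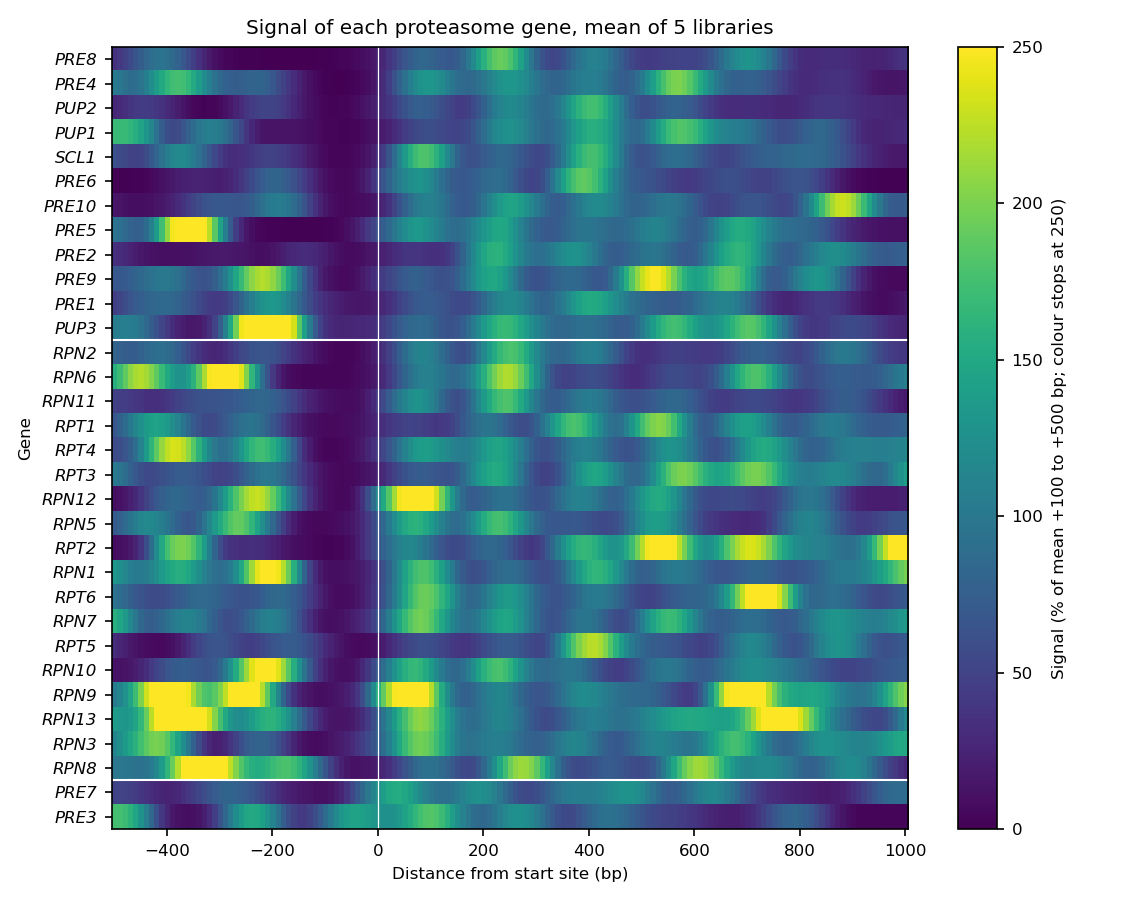
Signal of each subunit gene (rows) along the distance from the start site (bp, x axis), as the mean of 5 libraries in percent of the mean from +100 to +500 bp; the colour scale stops at 250. White lines separate core genes, regulatory particle genes, and PRE7 and PRE3. Rows of PRE8, PRE5 and PRE2 are dark far upstream of the start, and most core rows are dark at the right end.

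PRE7 and PRE3, which encode beta-ring subunits, have listed start sites on the displaced chromosomes. PRE7 (YBL041W) had promoter ratios of -1.85, -1.25, -1.29, -1.10 and -1.08 (mean -1.31 ± 0.31), with YAC1 below the other libraries. PRE3 (YJL001W), the gene of a proteolytic subunit, had ratios of 0.20, 0.43, 0.13, 0.10 and 0.35 (mean 0.24 ± 0.14), the only subunit gene above 0 in every library. When the lowest point of PRE3 was sought from -450 bp, it lay at -360, -360, -370, -360 and -360 bp, with 5.99, 11.7, 19.7, 4.74 and 5.32% of the downstream signal. A depleted stretch is therefore present near PRE3 in all 5 libraries, far upstream of the listed start. For this gene the place of the listed start and the state of the promoter cannot be told apart in these tables.

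Divergent promoters, shared by 2 genes transcribed away from each other, were found at 19 of the 30 genes (63.3%) by the gene order of R64, against 51.7% of 4565 host genes. Of the core genes 7 of 12 were divergent and of the regulatory particle genes 12 of 18. Divergent core promoters had a median width of 264 bp and tandem ones 172 bp, whereas in the regulatory particle the values were 147 and 174 bp and in host genes 160 and 183 bp. Subunit genes also lie near each other: PRE4 and RPN12 are both next to RET2, which encodes a coat protein of vesicles. RPN12 is divergent from RET2 and PRE4 lies in tandem behind it, and their mean ratios were -2.66 ± 0.40 and -3.45 ± 0.14, against -2.28 for RET2.

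Between strains with *K. lactis* and *D. hansenii* DNA, no subunit gene passed the test in promoter ratio or width. In limma over 5252 host genes, 0% passed an adjusted p of 0.05 in promoter ratio, and 0 of the 32 subunit genes did. At an unadjusted p below 0.05 there were 7 host genes (0.133%) and 0 subunit genes. For the width, over 5251 host genes, 0% passed, with 38 genes (0.724%) and 0 subunit genes at an unadjusted p below 0.05. The subunit genes had a median difference in ratio of 0.14 (*K. lactis* minus *D. hansenii*), with 25 of 32 higher in the *K. lactis* strains, beside 0.10 and 63.2% for all host genes tested. These values moved with single libraries. The median was 0.39 without YAC1, 0.03 without YAC2, 0.06 without YAC3, 0.14 without YAC6 and 0.29 without YAC7. In that order 27, 17, 20, 19 and 25 of 32 subunit genes were higher, beside 70.98%, 52.86%, 54.97%, 45.60% and 66.30% of host genes. The host median was then 0.24, 0.03, 0.03, -0.03 and 0.22. It rose without YAC1 or YAC7 and fell without YAC2 or YAC3, as the subunit median did. Without YAC6 only the host median changed sign. For a promoter window from -200 to 0 bp the subunit median was 0.03, with 17 of 32 higher, beside 49.7% of host genes. With pseudocounts of 0.01 and 0.5 it was 0.28 and 0.06, beside 0.15 and 0.04 for host genes.

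RPN5 (YDL147W), a lid subunit gene, had the smallest p of the 32 and was named for that after the values were seen. Its promoter ratios were -2.95, -1.68, -1.92, -3.27 and -2.88. YAC2 and YAC3 were the highest, but YAC1 lay between YAC6 and YAC7, so the groups overlap. The means were -2.18 in the *K. lactis* strains and -3.08 in the *D. hansenii* strains, a difference of 0.90 with a standard error of 0.44 (limma, unadjusted p = 0.0716, adjusted p = 1.00 over 5252 genes). PRE8 differed by 0.01 with a standard error of 0.26 and PUP3 by 0.66 with a standard error of 0.52. Even the difference of 0.90 in RPN5, with a standard error of 0.44, did not pass without adjustment. A difference of this size was thus not detectable with 3 strains against 2 in a gene that varied as much as RPN5. The standard error differed between subunit genes, from 0.23 in PRE4 to 0.55 in RPN9. The host median ratio was -2.37 in YAC1 and -2.41 in YAC6, against -1.84, -1.84 and -1.98 in YAC2, YAC3 and YAC7. This split runs across both groups, so the lack of calls does not show that the groups are alike. The YAC's species and the identity of the strains and libraries cannot be told apart.

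Genes that work with the proteasome had, as a list, promoters near the host median. The list holds assembly chaperones, shuttle factors with Cdc48, ubiquitin genes and ligases, and regulators of Rpn4, and 24 of its 28 genes lie off chromosomes II and X. Their median ratio differed from the host median by 0.06 ± 0.05 (SD, n = 5 libraries), and 10, 13, 11, 12 and 11 of the 24 lay below it, where 50% of host genes lie. The lowest were BLM10, a proteasome activator that caps the core, at -3.09 ± 0.38, and UBP6, a deubiquitinase that binds the regulatory particle, at -2.99 ± 0.34. The highest were UBR2, a ubiquitin ligase of Rpn4, at -0.34 ± 0.53, and UBI4, which encodes polyubiquitin, at -0.53 ± 0.36.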

How the data were processed

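Each library has a table of signal, the authors' scaled coverage of mononucleosomal DNA in 10 bp bins, oriented by gene per the file headers. The deposited signal averages near 1 in a table, and all values (100%, tolerance 0.02) are whole multiples of that table's smallest step. CASAVA 1.7.0 was used, per the submitters' processing notes. No source used here names the aligner, the build or where the start sites come from, so no coordinates are printed. Suffix letters of 214 gene names stood in the strand column and were put back. R64 gave symbols and gene order only, and promoter sequences were not used here.

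A gene was dropped from a library if its mean signal was below 10% of the median gene's, and 5254 to 5258 host genes remained. Gaussian smoothing (SD 20 bp) was applied to profiles. The strain groups were compared over all host genes in limma 3.58.1 (R 4.3.3, empirical Bayes with trend, Benjamini-Hochberg). Other values came from Python 3.11.15. The steps were tested on simulated data. The labels do not say whether further cultures stand behind a library, so p-values measure the spread between these strains only.

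Members and lists were chosen with earlier results of these data known. Values in every library are given for the 3 lowest and 2 highest promoter ratios of each particle, the 2 widest ranges, the widest and narrowest region, and PRE7 and PRE3, and, of the related genes, the 2 lowest and 2 highest are named. Other genes were named after their values were seen. Alternatives were other pseudocounts, windows, references, filters, smoothing and each library left out.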

Additional observations from a re-analysis of the deposited data

Results flagged for a closer look

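The promoter ratio of PRE7 in YAC1 was -1.85, far from the other 4 libraries, which lay between -1.29 and -1.08. The gap made up 0.738 of the range of the 5 libraries, above the limit of 0.71 (Dixon's 95% critical value). Of 40 values examined in this way, this was the only one past the limit, and chance alone gives about 1 in 20.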

How the results depend on the processing

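Alternatives were run for the differences of all 30 genes from the host, in ratio and depth, and of the core from the regulatory particle. Averaged over libraries, the sign of these differences held, but sizes moved. The differences between alpha and beta ring, ATPase and lid genes, related genes and host, and each particle and host were not run under alternatives. The difference of all 30 genes from the host median, -0.49, was -0.18 with a pseudocount of 0.5, -0.81 with 0.01, -0.25 with a promoter window from -200 to 0 bp and -0.61 with means. Leaving out 1 library gave -0.52 to -0.47. The core minus regulatory particle ratio, -0.39, was -0.80 with that window and -0.095 with the whole profile as reference (-0.44 to -0.35 without 1 library). The median width of all 30 genes, 173 bp, was 129 bp under a 30% line (170 to 176 bp without 1 library). The difference of the core from the regulatory particle was 53.3 to 75.8 bp in width without 1 library, and -59.7 to -45.1 percentage points in first-nucleosome level. From +700 to +900 bp the late difference was -29.5 in place of -48.4 (-53.7 to -44.7 without 1 library). The place ran from -76.3 to -73.8 bp and the depth relative to the host from -3.86 to -3.40 percentage points. With the window from -200 to 0 bp PRE3 turned to -0.049 and PUP3 to 0.19. For single genes 229 of 320 values moved by less than the spread between libraries (SD), 89 by more, and these 2 changed sign. The 229 include every value with 1 library left out, where the mean cannot by arithmetic move by that SD. They also include the values without the filter, which every subunit gene passed. The count of 229 is therefore no measure of how stable the single genes are. Without YAC7 limma called 17 genes in width, 0 of them subunit genes, and 0 under every other alternative run. In ratio it called 0 throughout. The cause of these changes was not tested.

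The pseudocount limits the lowest ratios: 13 of the 32 genes had a mean ratio within 1 log2 unit of the floor that it sets. Reads are not known, so no counting interval is given, and values of YAC3 rest on the fewest steps. No paired analysis was possible because each library is from a different strain, and no label pairs a *K. lactis* YAC strain with a *D. hansenii* YAC strain.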

Other observations

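The signal from -260 to -160 bp differed widely among subunit genes. Window and genes were chosen after the values were seen. In percent of the signal from +100 to +500 bp and in the order of strains used above, PRE5, an alpha-ring gene divergent from TGL3, held 1.0, 9.2, 1.6, 1.4 and 5.2%. PRE9, also an alpha-ring gene, held 199, 206, 217, 167 and 195%. This stretch was thus nearly empty in PRE5 and filled in PRE9 in all 5 libraries. In PRE5 it lay inside the depleted region, whose upstream edge was at -272 ± 7.16 bp (mean, SD, n = 5). In PRE9 it lay upstream of the depleted region, whose upstream edge was at -127 ± 3.97 bp. RPN9 held 126, 149, 462, 66.0 and 85.1%, with YAC3, the library with the coarsest steps, far above the others. Across the 30 genes the promoter ratio had a Spearman correlation of 0.573 to 0.876 between libraries (10 pairs of libraries), beside 0.457 to 0.881 across host genes, where genes are not independent replicates and the pseudocount and start sites are shared by both libraries of a pair.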
